A study of Homo sapiens with 6 samples.

Results

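Integrins and laminins are the receptors and the ligands through which epithelial cells hold on to their basement membrane. The 37 genes described here were taken by symbol from a table of 23569 genes. They comprise 26 genes of integrin chains (18 alpha, 8 beta) and 11 of laminin chains (5 alpha, 4 beta, 2 gamma). The symbol rule used no expression value, but the members were chosen with earlier results of these data known. Expression was compared between negative control TFK1 cells (oeNC, 3 libraries) and TFK1 cells overexpressing STUB1 (oeSTUB1, 3 libraries). TFK1 is a human cancer cell line from an extrahepatic bile duct carcinoma, and STUB1 (also called CHIP) is an E3 ubiquitin ligase that works with chaperones. The study used this comparison to look for tumor suppressor genes under the control of STUB1 with the DNA methylation proteins UHRF1 and DNMT1. It set the changed genes beside public DNMT1 ChIP-seq data and focused on those most strongly lowered. The labels give no treatment for either group. The study's methods describe infection of TFK1 cells with packaged virus and puromycin selection, and what the control cells carry is not given in the sources used here. The study states in general terms that its experiments were repeated independently, but no source used here ties this to the sequencing or says whether the 3 libraries of a group came from separate infections or cultures, so the p-values given here measure the spread between these libraries, which may be technical.

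An integrin is a heterodimer of 1 alpha and 1 beta chain in the plasma membrane, and the pairing sets what it binds. The beta 1 chain (ITGB1) serves most alpha chains, with collagen receptors formed by alpha 1, 2, 10 and 11, laminin receptors by alpha 3, 6 and 7, and receptors for fibronectin and other RGD proteins by alpha 5, 8 and V. The beta 4 chain (ITGB4) pairs with alpha 6 alone and anchors epithelial cells to laminin at hemidesmosomes. A laminin is a trimer of an alpha, a beta and a gamma chain, named by its chain numbers, so that laminin-511 is LAMA5, LAMB1 and LAMC1, and laminin-521 has LAMB2 in place of LAMB1. In epithelia these trimers are secreted under the cells, where the alpha chain carries the main integrin-binding site.

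Values are FPKM, which divide a gene's fragments by its length and by the depth of the library. Library totals recovered from the table lay between 33106564 and 36744521 fragments. The 15353 genes whose mean over the 6 libraries reached 0.1 FPKM were tested by limma after the transform log2(FPKM + 0.1), p-values were adjusted over all of them by the Benjamini-Hochberg method, and a gene was called higher or lower at an adjusted p under 0.05. A log2 fold change is oeSTUB1 over oeNC on that scale and is given with its standard error (SE). The scale understates the change of genes at low FPKM, and the median over all tested genes was 0.019. As a check of the labels, STUB1 went from 32.3 ± 1.23 to 66.1 ± 7.70 FPKM in oeSTUB1 cells (mean ± SD of 3 libraries a group, as in all such values below). Of the 7 biliary epithelial markers examined, KRT7, KRT8, KRT18 and CDH1 were above 20 FPKM in every library, whereas the ductal keratin KRT19 was scarce, at 0.453 ± 0.078 FPKM in the control and 2.97 ± 0.45 FPKM with STUB1 raised (SD, n = 3 each). In oeSTUB1 cells 4 of these 7 markers were lower (KRT8, KRT18, EPCAM, CDH1) and 1 was higher (KRT19). Their summed level, most of it KRT8 and KRT18, went from 7419 to 7996 FPKM in oeNC libraries to 4724 to 6263 FPKM in oeSTUB1 libraries. KRT7 was higher in every oeSTUB1 library, at 587 to 872 FPKM against 482 to 527 FPKM in oeNC, but was not called (limma adjusted p = 0.082). Of 5 hepatocyte markers only CPS1 was high enough to be tested, and it was lower in oeSTUB1. The 5 summed to 93.6 to 99.4 FPKM in oeNC and 32.7 to 51.8 FPKM in oeSTUB1 libraries, with TTR and CYP3A4 at or under the floor of 3 fragments throughout. The part of these shifts in the results on integrins and laminins was not tested, and in bulk RNA fewer cells expressing a gene and less RNA per cell cannot be told apart.

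One oeSTUB1 library stood apart by gene length. In oeSTUB1 replicate 2, genes over 6000 bases had a median deviation of -0.233 log2 units from the group mean and genes under 2000 bases one of 0.258, taken over genes averaging 1 FPKM or more, while the corresponding medians of the oeNC libraries stayed between -0.0283 and 0.0235. Integrin and laminin genes are long. The recovered length of the tested members had a median of 5708 bases, against 3694 for all tested genes, and 21 of the 29 tested members had their lowest oeSTUB1 value in replicate 2. Log2 fold changes of members that move by over 1.5 times or gain a call without that library are therefore given both ways.

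Of the 37 genes, 29 passed the filter on low values, and each of these had a mean of at least 0.1 FPKM in both groups. In oeSTUB1 cells 1 member was higher, ITGA3, and 6 were lower, ITGA1, ITGA2B, ITGA6, ITGA7, ITGB4 and LAMC3. Among all tested genes 7.01% were called higher and 6.59% lower. With a log2 fold change over 1 in size required as well, ITGA1, ITGB4 and LAMC3 remained, all on the lower side, against a background of 2.79% higher and 2.4% lower. All 3 oeSTUB1 libraries lay above all 3 oeNC libraries in 7 of the 29 tested members and below them in 11, which compares with 21.5% and 17.3% of all tested genes. The median log2 fold change of the tested members was -0.16, with 11 positive and 18 negative values. By family it was -0.41 for the 14 tested integrin alpha chains and 0.19 for the 8 integrin beta chains. ITGA1, ITGA3 and ITGB4 were called under each of the 16 alternative settings, and ITGA7 and LAMC3 under each of the 15 in which they were tested. Leaving out oeSTUB1 replicate 2 raised the calls to 4 higher and 9 lower, the additions being ITGB1, ITGB8 and LAMA3 on the higher side and ITGA2, ITGAV and LAMB1 on the lower side. The share of all tested genes called rose with it, to 14.8% higher and 12% lower.

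**Figure D1:**
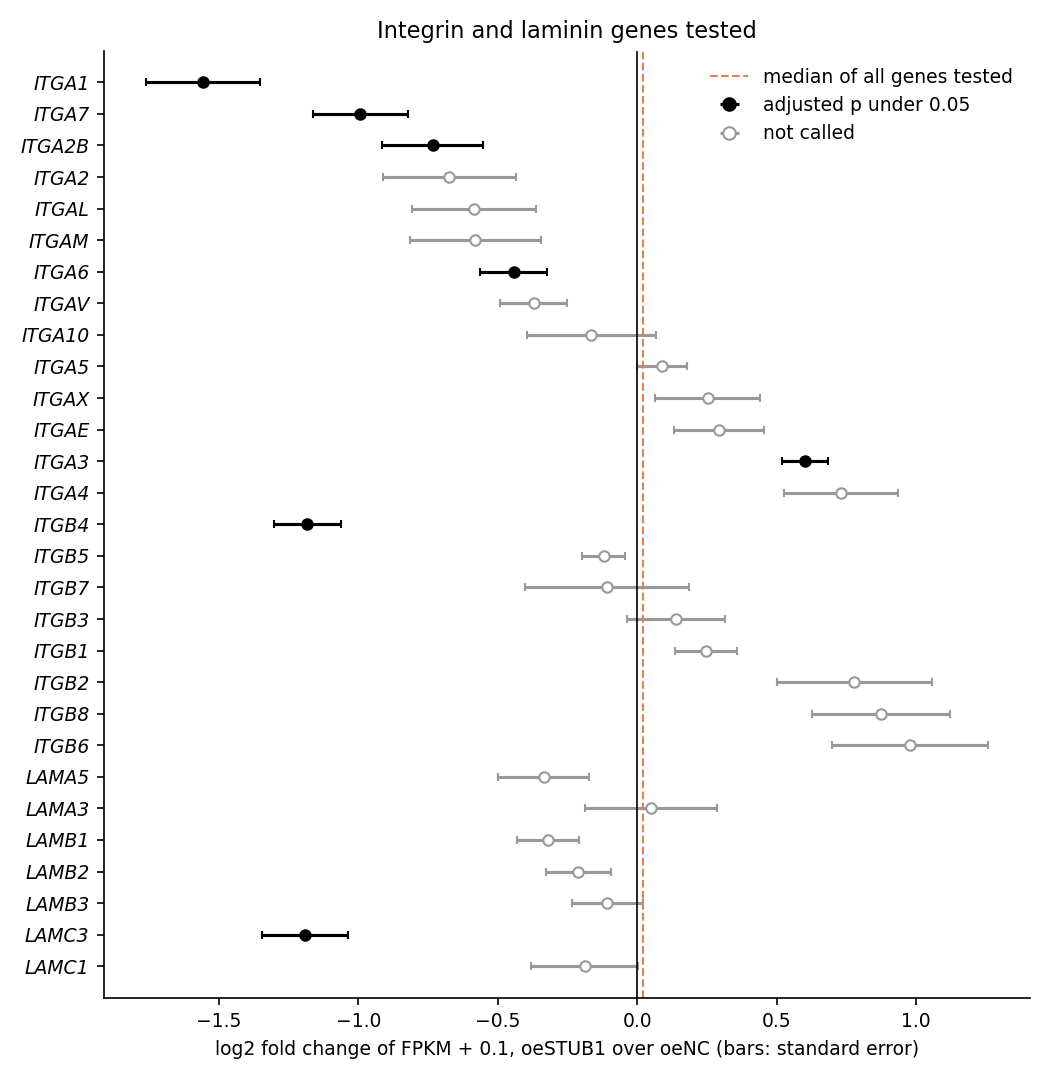
Log2 fold changes of FPKM + 0.1 (horizontal axis, oeSTUB1 over oeNC) of the 29 tested integrin and laminin genes, grouped by chain family, with bars for the standard error. Filled points were called at an adjusted p under 0.05, open points were not, and the dashed line is the median of all tested genes at 0.019. ITGA1 at -1.56, which was called, and ITGB6 at 0.98, which was not, lie at the ends.

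The laminin-binding integrins shifted away from ITGA6 and ITGB4. ITGB4, the hemidesmosome chain, was at 60.1, 59.99 and 60.7 FPKM in the oeNC libraries and at 28.5, 21.8 and 29.8 FPKM in the oeSTUB1 libraries. The oeNC values were nearly equal, and no oeSTUB1 library reached 30 FPKM. Its log2 fold change was -1.18 (SE 0.12, limma adjusted p = 0.00084), a 2.27-fold fall, and without oeSTUB1 replicate 2 it was -1.05. These values rest on 4958 to 15306 fragments a library. ITGB4 lies on the plus strand of chromosome 17 from 75721328 to 75757818 (GRCh38, GENCODE release 29), where the annotation places GALK1 on the opposite strand across part of it. Whether the counting used strand is not given in the sources used here.

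ITGA6, the only alpha partner of ITGB4 and also a partner of ITGB1, was at 23.9, 25.4 and 26.5 FPKM in oeNC and at 19.8, 15.4 and 20.9 FPKM in oeSTUB1 libraries. The groups did not overlap, but the gap was narrow and the call stood close to the threshold, with a log2 fold change of -0.44 (SE 0.12, limma adjusted p = 0.048). The call was lost on leaving out oeNC replicate 1 (limma adjusted p = 0.115), oeNC replicate 2 (0.158), oeNC replicate 3 (0.163) or oeSTUB1 replicate 1 (0.0757), and it held without oeSTUB1 replicate 2, at a log2 fold change of -0.31 and an adjusted p of 0.0092. It was also lost under eBayes without trend (limma adjusted p = 0.089), without a filter (0.081), with a filter at 1 FPKM (0.051), with a pseudocount of 0.01 (0.051) and with the replicate number as a block (0.0651), so that ITGA6 was called under 7 of 16 alternatives. ITGA6 is on chromosome 2, from 172427354 to 172506282 on the plus strand, and ITGA6-AS1 is annotated opposite to it. The 1031 tested genes of chromosome 2 had a median log2 fold change of -0.21, lower than that of any other chromosome with a member, and the part of this in the values of ITGA6, ITGAV, ITGA4 and ITGB6 was not tested.

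ITGA3, which pairs with ITGB1 and binds laminins of epithelial basement membranes, went the other way. It was at 36.9, 38.6 and 37.9 FPKM in oeNC and at 60.2, 52.4 and 59.9 FPKM in oeSTUB1 libraries. No library of one group came near the other, and the log2 fold change was 0.60 (SE 0.082, limma adjusted p = 0.0030), or 1.52-fold. ITGA3 and ITGB4 are both on chromosome 17, whose tested genes had a median of -0.04. ITGA7, a laminin receptor chain best known from muscle, was scarce in these cells and went from 1.02 ± 0.15 to 0.460 ± 0.053 FPKM (SD, n = 3 each). Its libraries held 159 to 202 fragments in oeNC and 67 to 81 in oeSTUB1 and did not overlap (log2 fold change -0.99, SE 0.17, limma adjusted p = 0.0081). METTL7B and BLOC1S1 are annotated on the strand opposite to ITGA7.

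ITGB1, the shared beta chain, had the highest FPKM of the 37 genes. It was at 405, 418 and 405 FPKM in oeNC and at 532, 420 and 512 FPKM in oeSTUB1 libraries. All oeSTUB1 values were above those of oeNC, but replicate 2 exceeded the highest oeNC library only slightly, and the log2 fold change of 0.25 was not called (SE 0.11, limma adjusted p = 0.186). Without that library it was 0.35 with an adjusted p of 0.0016. The ratio of ITGB1 to ITGB4, on the FPKM scale, was 6.79 ± 0.16 in oeNC and 18.4 ± 1.06 in oeSTUB1 (SD, n = 3 each).

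**Figure D2:**
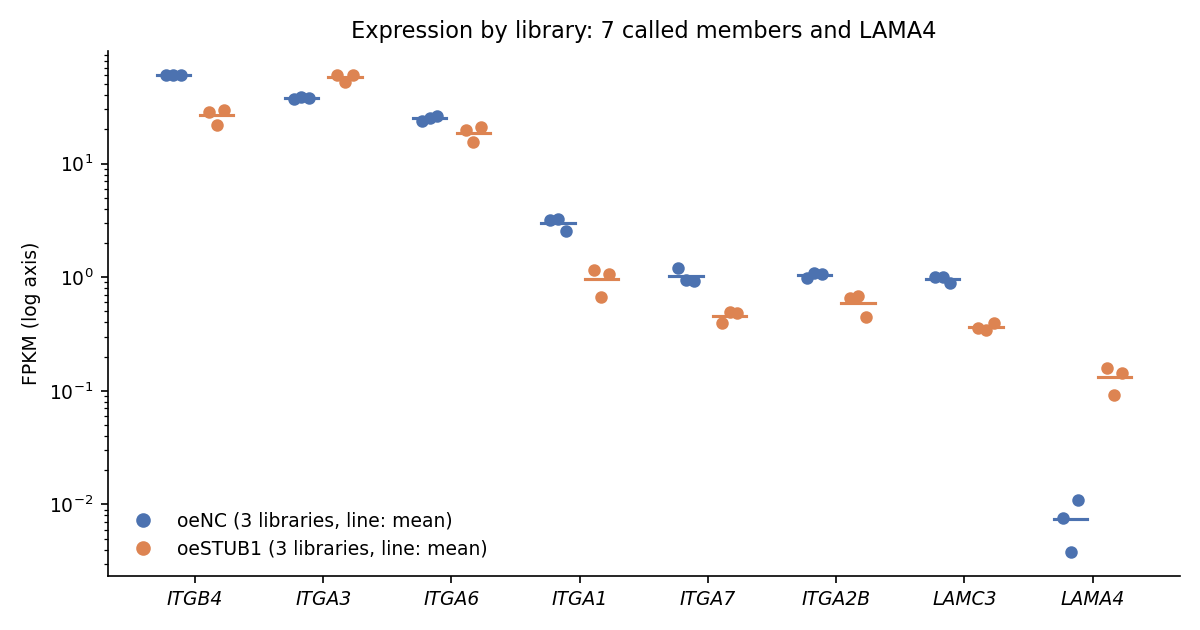
FPKM in each library (vertical log axis) of the 7 called members and of LAMA4, which was under the filter on low values. Points are libraries, 3 of each group, and lines are group means. The groups are separate for every gene shown, with ITGA3 and LAMA4 higher and the other 6 genes lower in oeSTUB1.

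Read as shares of the 3 laminin-binding alpha chains, ITGA3 made up 59.5, 59.4 and 58.0% of the summed FPKM in oeNC libraries and 74.9, 76.7 and 73.7% in oeSTUB1 libraries. The share of ITGA6 was 39.4% ± 1.03 (SD, n = 3) in oeNC and 24.3% ± 1.58 (SD, n = 3) in oeSTUB1, a difference of -15.1 percentage points. The shift was present in every library, replicate 2 included, and without that library the ITGA3 difference was 15.3 instead of 16.1 points. For each of these shares an exact permutation test (two-sided) gave p = 0.1, the smallest value possible with 3 libraries against 3, and an adjusted p of 0.16 over the 8 shares compared. Over all 12 alpha chains that pair with ITGB1, those for laminin made up 41.7% ± 0.47 in oeNC and 51.7% ± 1.79 in oeSTUB1 (SD, n = 3 each). Those for collagen made up 7.77% ± 0.26 and 4.51% ± 0.96 (SD, n = 3 each). The remaining chains, for RGD proteins and other matrix, made up 50.5% ± 0.55 and 43.8% ± 1.08 (SD, n = 3 each). Of the 3 laminin chains only ITGA3 rose, while ITGA6 and ITGA7 were called lower. All RNA of ITGA6 and ITGAV is counted here, although both chains also pair with other beta chains.

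Among the collagen receptors ITGA1 fell. ITGA1, a receptor for basement membrane and other collagens, was at 3.16, 3.27 and 2.54 FPKM in oeNC (1003 to 1216 fragments) and at 1.15, 0.675 and 1.07 FPKM in oeSTUB1 libraries (240 to 426 fragments). The lowest oeNC library was more than 2 times the highest oeSTUB1 library, and the log2 fold change was -1.56 (SE 0.20, limma adjusted p = 0.0026). Without oeSTUB1 replicate 2, the lowest of the 6, it was -1.34. ITGA2, the other widely expressed collagen receptor chain of epithelia, was at 7.84, 9.05 and 9.47 FPKM in oeNC and at 6.69, 3.54 and 6.82 FPKM in oeSTUB1. These groups did not overlap either, but ITGA2 was not called (log2 fold change -0.67, SE 0.24, limma adjusted p = 0.105), and without replicate 2 a smaller log2 fold change of -0.37 was called (adjusted p = 0.021). ITGA10 averaged 0.151 ± 0.034 and 0.123 ± 0.019 FPKM in the respective groups (SD, n = 3 each) with overlapping groups. ITGA11 was under the filter, with 1, 8 and 8 fragments in oeNC and 31, 8 and 18 in oeSTUB1.

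ITGA1 and ITGA2 are neighbours on the plus strand of chromosome 5. ITGA1 spans 52787896 to 52959210 and ITGA2 spans 52989326 to 53094779 (GRCh38, GENCODE release 29), with 30115 bases between them. The study concerns DNA methylation, which in promoters is placed on the cytosine of CpG dinucleotides, and no methylation was measured in these libraries. For reading the values beside their sequence, the 250 bases before the RefSeq start were taken from RefSeq on GRCh38.p14 for the 26 of 37 members with an entry. They are printed for ITGA1 and ITGA2, the neighbours that were both lower in every oeSTUB1 library, and for ITGA2B and ITGA6, the other called members with an entry. ITGA3, ITGA7, ITGB4 and LAMC3 have none. Sequences run 5' to 3' on the gene's strand, and capitals mark each CG, which reads the same on both strands. The windows are chr5:52787666-52787915 (plus strand) for ITGA1, chr5:52989102-52989351 (plus) for ITGA2, chr17:44389650-44389899 (minus) for ITGA2B and chr2:172427086-172427335 (plus) for ITGA6.
ITGA1: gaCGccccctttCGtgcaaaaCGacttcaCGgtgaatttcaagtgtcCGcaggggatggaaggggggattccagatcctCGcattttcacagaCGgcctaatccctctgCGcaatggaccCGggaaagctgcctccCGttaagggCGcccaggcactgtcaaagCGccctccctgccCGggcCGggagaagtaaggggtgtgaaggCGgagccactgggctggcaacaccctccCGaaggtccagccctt
ITGA2: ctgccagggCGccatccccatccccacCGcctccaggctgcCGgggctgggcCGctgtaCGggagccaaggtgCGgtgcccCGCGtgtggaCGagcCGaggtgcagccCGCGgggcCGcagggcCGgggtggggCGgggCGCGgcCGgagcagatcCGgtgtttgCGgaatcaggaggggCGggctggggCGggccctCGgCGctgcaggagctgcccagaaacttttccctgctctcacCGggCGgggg
ITGA2B: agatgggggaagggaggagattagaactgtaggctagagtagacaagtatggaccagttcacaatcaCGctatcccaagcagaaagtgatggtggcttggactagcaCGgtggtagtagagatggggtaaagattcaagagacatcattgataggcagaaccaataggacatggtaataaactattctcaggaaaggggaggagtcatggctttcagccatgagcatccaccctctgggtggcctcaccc
ITGA6: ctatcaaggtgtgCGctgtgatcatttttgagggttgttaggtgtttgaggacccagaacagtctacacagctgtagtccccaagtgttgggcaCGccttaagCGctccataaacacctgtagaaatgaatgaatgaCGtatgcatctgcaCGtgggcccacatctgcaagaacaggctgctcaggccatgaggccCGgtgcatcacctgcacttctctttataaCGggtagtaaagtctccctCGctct

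The ITGA2 window held 26 CG and the ITGA1 window 16, whereas that of ITGA2B held 2 and that of ITGA6 held 8. Over the 35116 RefSeq windows of this length the median was 11, with quartiles of 3 and 23, and 93.9% held at least 1 CG. The 26 members with an entry had a median of 10.5. The windows of LAMA5, LAMC1 and ITGB1, which were not called, held 32 each, and that of ITGB6 held 0. The called members with an entry, ITGA1, ITGA2B and ITGA6, ranged from CpG-poor to above the median, and uncalled members covered both ends. With so few windows, and none for ITGA3, ITGA7, ITGB4 and LAMC3, whether CpG content goes with the calls was not tested.

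The alpha V receptors and their beta chains were described next, since they bind RGD proteins such as vitronectin and fibronectin, and those with beta 6 or beta 8 bind latent TGF-beta. ITGAV was at 60.8, 63.9 and 60.8 FPKM in oeNC and at 54.7, 39.6 and 50.2 FPKM in oeSTUB1 libraries. All oeSTUB1 values were lower, and the log2 fold change of -0.37 was not called (SE 0.12, limma adjusted p = 0.082), whereas without oeSTUB1 replicate 2 it was -0.24 with an adjusted p of 0.016. ITGB5, its most abundant dedicated partner, was at 73.7 ± 2.92 and 67.8 ± 4.05 FPKM in oeNC and oeSTUB1 (SD, n = 3 each) with overlapping groups (log2 fold change -0.12, limma adjusted p = 0.344). ITGB5 accounted for 98.3% ± 0.34 of the summed FPKM of ITGB3, ITGB5, ITGB6 and ITGB8 in oeNC and for 96.8% ± 0.68 in oeSTUB1 (SD, n = 3 each).

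The remaining 3 of these beta chains were scarce. ITGB6, typical of epithelia, was at 0.795, 0.752 and 0.422 FPKM in oeNC and at 1.69, 1.54 and 0.940 FPKM in oeSTUB1, with 72 to 128 fragments against 149 to 270. ITGB8 was at 0.146, 0.0872 and 0.154 FPKM in oeNC and at 0.354, 0.230 and 0.382 FPKM in oeSTUB1, with 31 to 58 fragments against 78 to 134. Both had their 3 oeSTUB1 libraries above their 3 oeNC libraries and both missed the threshold narrowly, ITGB6 at a log2 fold change of 0.98 (SE 0.28, limma adjusted p = 0.057) and ITGB8 at 0.88 (SE 0.25, limma adjusted p = 0.055). Each passed it under 5 of 16 and 5 of 15 alternatives, ITGB6 without oeSTUB1 replicate 3 (adjusted p = 0.033) and ITGB8 without oeSTUB1 replicate 2 (log2 fold change 1.04, adjusted p = 0.023) among them. ITGB3, the beta chain of the platelet receptor, was at 0.454 ± 0.042 and 0.512 ± 0.075 FPKM with overlapping groups.

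ITGA2B, the platelet partner of ITGB3, was called lower. It was at 0.977, 1.09 and 1.06 FPKM in oeNC and at 0.659, 0.686 and 0.446 FPKM in oeSTUB1 libraries, from 118 to 136 and 53 to 79 fragments. The groups were separate (log2 fold change -0.73, SE 0.18, limma adjusted p = 0.035), but the call was lost on leaving out oeNC replicate 1 (limma adjusted p = 0.1004), 2 (0.137) or 3 (0.116), or oeSTUB1 replicate 1 (0.0607) or 3 (0.0716), and ITGA2B was called under 7 of 15 alternatives in all. ITGA5, the fibronectin receptor chain, was at 15.7 ± 0.60 and 16.7 ± 1.47 FPKM (SD, n = 3 each), and its log2 fold change of 0.09 was not called (limma adjusted p = 0.559). ITGA8 had 1 fragment in 1 oeNC library and 0 in the other five.

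The integrins of white blood cells were all at low levels. ITGAL, ITGAM, ITGAX and ITGAD pair with ITGB2, and ITGAE pairs with ITGB7, which also takes ITGA4. Of these, ITGAE was the highest at 3.25 ± 0.11 and 4.08 ± 0.99 FPKM in oeNC and oeSTUB1 (SD, n = 3 each), with 993 fragments in oeSTUB1 replicate 2 against 646 to 694 in the other five libraries, and HASPIN is annotated on its opposite strand. ITGB2 was at 0.815, 0.590 and 1.28 FPKM in oeNC and at 2.05, 1.31 and 1.34 FPKM in oeSTUB1, higher in every oeSTUB1 library, with the nearest values almost touching (log2 fold change 0.78, SE 0.28, limma adjusted p = 0.107). ITGB2-AS1 is annotated opposite to it. ITGAL and ITGAM had negative log2 fold changes of -0.59 and -0.58 and ITGAX a positive one of 0.25, and none was called. The pan-leukocyte marker PTPRC was at 0.121 ± 0.078 and 0.225 ± 0.082 FPKM (SD, n = 3 each). The summed level of the 5 blood cell markers examined, which include ITGAM itself, was 5.36 to 7.36 FPKM in oeNC and 5.49 to 6.75 FPKM in oeSTUB1. Of these CD14 supplied the most, at 4.33 to 6.09 FPKM in oeNC and 4.43 to 5.70 FPKM in oeSTUB1.

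ITGA4, the lymphocyte chain that binds VCAM1 and fibronectin, was at 0.102, 0.114 and 0.107 FPKM in oeNC and at 0.264, 0.246 and 0.223 FPKM in oeSTUB1, from 26 to 29 fragments against 56 to 67. The groups lay far apart for so low a gene, and the test fell just short (log2 fold change 0.73, SE 0.20, limma adjusted p = 0.054). The pseudocount weighs on this value, and the log2 ratio of the group means was 1.18. ITGB7 was at 0.232 ± 0.076 and 0.210 ± 0.093 FPKM with overlapping groups (SD, n = 3 each). ITGA9 had 1 to 8 fragments and ITGAD had 0 to 4 in every library.

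Among the ligands, the laminin alpha chains were dominated by LAMA5. LAMA5, the chain of laminin-511 and laminin-521, was at 60.4, 60.8 and 56.4 FPKM in oeNC and at 52.3, 35.2 and 55.7 FPKM in oeSTUB1 libraries. The groups were separate only by a small margin, and the log2 fold change of -0.34 was not called (SE 0.16, limma adjusted p = 0.214), nor was the smaller one of -0.13 without oeSTUB1 replicate 2 (adjusted p = 0.107). ADRM1 and LAMA5-AS1 are annotated opposite to LAMA5. LAMA3, the alpha chain of laminin-311 and laminin-321, was at 3.90, 3.93 and 4.21 FPKM in oeNC and at 5.07, 2.69 and 5.24 FPKM in oeSTUB1. Replicates 1 and 3 of oeSTUB1 were above all oeNC libraries and replicate 2 was below them, so that the log2 fold change of 0.05 (limma adjusted p = 0.911) became 0.36 (adjusted p = 0.013) without replicate 2, and negative without replicate 1 (-0.09) or 3 (-0.11).

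LAMA4, a chain typical of vessels and other mesenchymal basement membranes, was nearly undetected in oeNC, with 2, 1 and 3 fragments, and had 41, 23 and 37 fragments in oeSTUB1 libraries. Its oeSTUB1 mean was 0.131 ± 0.035 FPKM (SD, n = 3). That is 11.65-fold the level that 3 fragments per library would give, and no oeNC library had more than 3 fragments. LAMA4 was under the filter on low values. In a fit of all 23569 genes without the filter it was called (log2 fold change 1.09, SE 0.14, limma adjusted p = 0.0071). Such floors cover counting error only. The endothelial markers KDR, VWF and TEK had at most 3 fragments in every library, and the summed level of the 5 endothelial markers was 0.077 to 0.103 FPKM in oeNC and 0.097 to 0.2496 FPKM in oeSTUB1. The 8 fibroblast markers summed to 1.31 to 2.36 FPKM in oeNC and 2.16 to 4.05 FPKM in oeSTUB1, with COL1A2 and DCN at the floor in every library. COL1A1 supplied most of this sum, with overlapping groups. THY1 (1 to 4 fragments in oeNC, 8 to 19 in oeSTUB1) and COL3A1 (2 to 8 against 10 to 19) were higher in every oeSTUB1 library, as LAMA4 was, and LUM was lower in every one (14 to 29 against 2 to 11). The part of these shifts in the LAMA4 values was not tested. LAMA1 had 5 to 15 and LAMA2 had 4 to 29 fragments a library, in overlapping groups.

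None of the 3 tested laminin beta chains was called by limma, nor by limma-voom on the recovered fragments, and 1 of them, LAMB1, had an unadjusted p under 0.05. LAMB1 was at 84.7, 86.8 and 91.1 FPKM in oeNC and at 73.8, 59.4 and 78.4 FPKM in oeSTUB1, lower in every library (log2 fold change -0.32, SE 0.11, limma adjusted p = 0.09998), and without oeSTUB1 replicate 2 its log2 fold change of -0.20 was called (adjusted p = 0.024). LAMB2 was at 21.5 ± 0.36 and 18.8 ± 3.01 FPKM and LAMB3 at 7.21 ± 0.35 and 6.74 ± 1.17 FPKM in oeNC and oeSTUB1 (SD, n = 3 each). Both overlapped between groups, and LAMB4 had 2 to 8 fragments a library. LAMB1 made up 75.3% ± 0.83 of the summed beta chain FPKM in oeNC and 73.5% ± 1.26 in oeSTUB1 (SD, n = 3 each), which overlapped (exact permutation p = 0.2, adjusted 0.229).

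Of the gamma chains, LAMC1, which is part of most laminins, was at 53.8, 54.8 and 54.9 FPKM in oeNC and at 56.9, 33.7 and 56.9 FPKM in oeSTUB1, so that only replicate 2 fell outside a narrow range (log2 fold change -0.19, limma adjusted p = 0.552, and 0.06 without that library). LAMC3 was scarcer and fell. It was at 1.01, 0.995 and 0.886 FPKM in oeNC and at 0.360, 0.340 and 0.398 FPKM in oeSTUB1, from 249 to 269 and 86 to 104 fragments. The groups were compact and separate, with a log2 fold change of -1.19 (SE 0.15, limma adjusted p = 0.0024). It lies on chromosome 9, whose 604 tested genes had a median log2 fold change of 0.16, the opposite sign. The FPKM ratio of LAMC1 to LAMC3 was 56.7 ± 4.62 in oeNC and 133 ± 30.4 in oeSTUB1 (SD, n = 3 each).

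**Figure D3:**
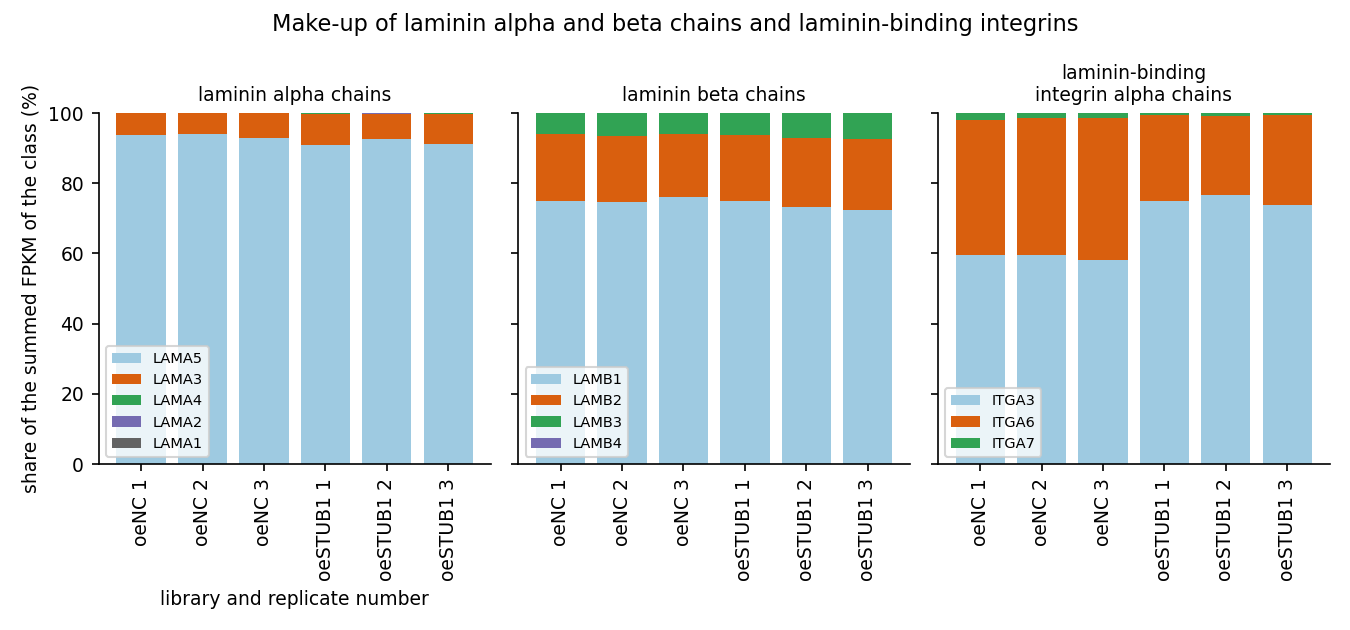
Shares of the summed FPKM (vertical axis, percent) taken by each chain within laminin alpha and beta chains and within the laminin-binding integrin alpha chains, 1 bar per library. The ITGA3 block is larger in all 3 oeSTUB1 bars (73.7 to 76.7%) than in the oeNC bars (58.0 to 59.5%).

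Set out by complex, the chain with the lowest FPKM bounds how much of a trimer or dimer the RNA levels could supply if all chains were made alike, which was not measured. For laminin-311 and laminin-321 that chain was LAMA3 in all 6 libraries, at the values given above, which overlapped between the groups. For laminin-511 the lowest chain was at 53.8, 54.8 and 54.9 FPKM in oeNC and at 52.3, 33.7 and 55.7 FPKM in oeSTUB1, in overlapping groups. For laminin-521 it was LAMB2, at 21.5 ± 0.36 and 18.8 ± 3.01 FPKM. For laminin-523 it was LAMC3, the chain that fell.

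On the receptor side of the same pairs, ITGA3 with ITGB1 was limited by ITGA3, which rose, and ITGA6 with ITGB4 by ITGA6, which stayed below ITGB4 in every library. The ratio of ITGA3 to ITGA6 FPKM was 1.54, 1.52 and 1.43 in oeNC and 3.05, 3.40 and 2.87 in oeSTUB1 libraries. The collagen receptors were limited by ITGA1 and ITGA2 and never by ITGB1, and alpha V with beta 5 was limited by ITGAV. The summed FPKM of the 12 alpha partners of ITGB1 was 154 ± 4.14 in oeNC and 149 ± 18.3 in oeSTUB1 (SD, n = 3 each), so that ITGB1 exceeded their sum in every library.

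**Figure D4:**
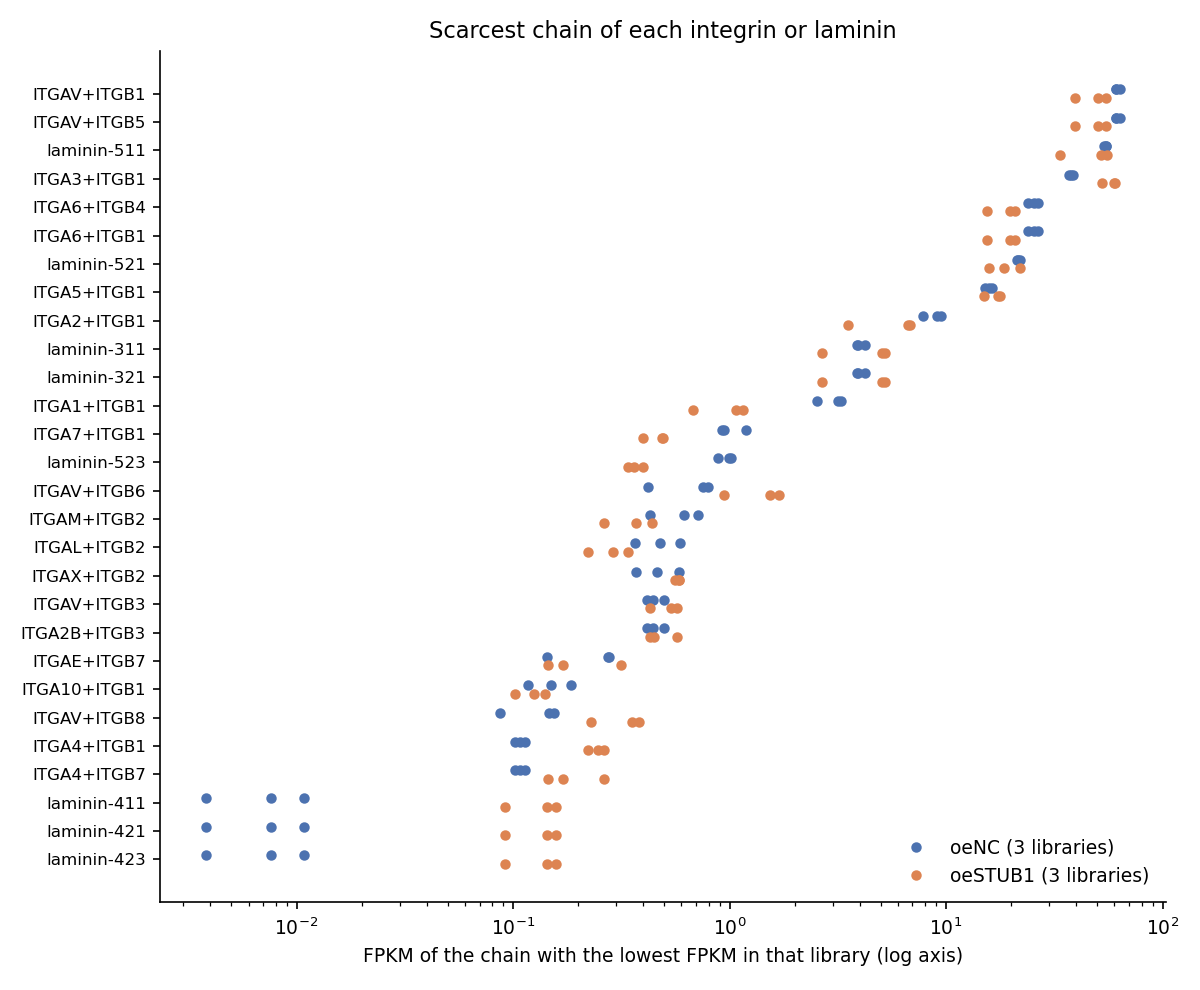
FPKM of the chain with the lowest FPKM in each library (horizontal log axis) for integrin dimers and laminin trimers whose scarcest chain had a mean of at least 0.1 FPKM in either group, with 3 points for each group. Laminin-523, through LAMC3, moves from 0.886 to 1.01 FPKM in oeNC to 0.340 to 0.398 FPKM in oeSTUB1, and the 3 trimers with LAMA4 share that chain and so repeat the same points.

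The genes around these receptors and ligands were read from 5 lists with 74 genes in all, of which 68 were tested. There were 13 higher and 9 lower in oeSTUB1, and the median log2 fold change was 0.06. The share of all tested genes to set beside these counts, and beside those of each list, is 7.01% higher and 6.59% lower. Of the 12 basement membrane partners, 4 were higher (COL4A2, COL4A5, COL4A6, COL18A1) and 2 lower (COL4A3, COL4A4), so that of type IV collagen, the network to which laminin is tied, both chains of the COL4A5 and COL4A6 gene pair were higher and both of the COL4A3 and COL4A4 pair lower. COL4A1, the partner of COL4A2, moved the same way in separate groups but narrowly missed the threshold. Its log2 fold change was 0.58 (SE 0.16, limma adjusted p = 0.054), beside 0.51 for COL4A2. COL4A6 was at 0.964, 0.989 and 0.969 FPKM in oeNC and at 5.59, 4.13 and 6.43 FPKM in oeSTUB1 (log2 fold change 2.33, limma adjusted p = 0.00020). COL4A5, its head-to-head neighbour on chromosome X, went from 3.66 ± 0.16 to 9.74 ± 1.09 FPKM and COL4A4 from 3.19 ± 0.34 to 1.51 ± 0.33 FPKM (SD, n = 3 each). COL18A1, which carries the endostatin fragment, went from 15.2 ± 0.47 to 31.9 ± 2.05 FPKM (SD, n = 3 each; log2 fold change 1.07). COL4A3 and COL4A4 lie on chromosome 2, with the median shift given above.

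Of the 26 tested genes that link integrins to actin or signal from them, 3 were higher (FERMT2, PARVA, TNS4) and 3 lower (SRC, TNS1, DAB2). TNS4, a tensin without an actin-binding region, was at 18.0, 18.3 and 17.7 FPKM in oeNC and at 48.2, 30.6 and 44.3 FPKM in oeSTUB1, while TNS1 was at 3.10 ± 0.54 and 0.954 ± 0.331 FPKM (SD, n = 3 each), with log2 fold changes of 1.16 and -1.64. DAB2, an adaptor for integrin endocytosis, fell by 1.52 on the log2 scale, from 12.8 ± 0.31 to 4.47 ± 0.85 FPKM (SD, n = 3 each). The core linkers TLN1, ILK, VCL, PTK2 and PXN were not called. None of the 4 other hemidesmosome genes was called at an adjusted p under 0.05 (PLEC, DST, COL17A1 and CD151), with log2 fold changes from -0.22 to 0.24, 0 of them had an unadjusted p under 0.05, and limma-voom called 0. In PLEC and DST, oeSTUB1 replicates 1 and 3 lay above every oeNC library and replicate 2 lay below them all. DST was at 5.20, 5.38 and 5.45 FPKM in oeNC and at 6.54, 2.34 and 6.16 FPKM in oeSTUB1. The short gene CD151 had its highest value, 239 FPKM, in replicate 2. A fit of these genes without that library is not given here, so their lack of calls is not free of its skew by length. ITGB4 was called under all 16 alternatives, while the call of its partner ITGA6 depended on the setting.

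Of the 18 tested other ligands of integrins, 5 were higher and 4 lower. ICAM1, the ligand of the ITGB2 integrins, was at 0.437, 0.292 and 0.587 FPKM in oeNC and at 1.43, 1.29 and 2.101 FPKM in oeSTUB1 (log2 fold change 1.67, limma adjusted p = 0.0052). FBN1, a microfibril protein with an RGD site, went from 0.711 ± 0.074 to 1.58 ± 0.49 FPKM (log2 fold change 1.01), and THBS1, CCN2 and MFGE8 were higher by 0.71 each on that scale. CDH1, the epithelial cadherin that ITGAE binds, fell by 1.09 on the log2 scale, from 62.6 ± 2.20 to 30.04 ± 7.53 FPKM, and SPP1, FGB and FGG were also lower. FN1, the main ligand of ITGA5, was at 129, 136 and 150 FPKM in oeNC and at 100, 54.3 and 120 FPKM in oeSTUB1. The FN1 groups did not overlap, but oeSTUB1 replicate 2 was much the lowest. Its log2 fold change of -0.67 was not called (SE 0.26, limma adjusted p = 0.134). Among the 8 other laminin receptors and their partners, BCAM, which binds LAMA5, was higher (log2 fold change 0.41, limma adjusted p = 0.012). DAG1, the dystroglycan gene, was not called. Its values were 34.7, 34.5 and 34.6 FPKM in oeNC and 37.3, 25.6 and 38.1 FPKM in oeSTUB1, with only replicate 2 below oeNC. A fit of DAG1 without that library is not given here.

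**Figure D5:**
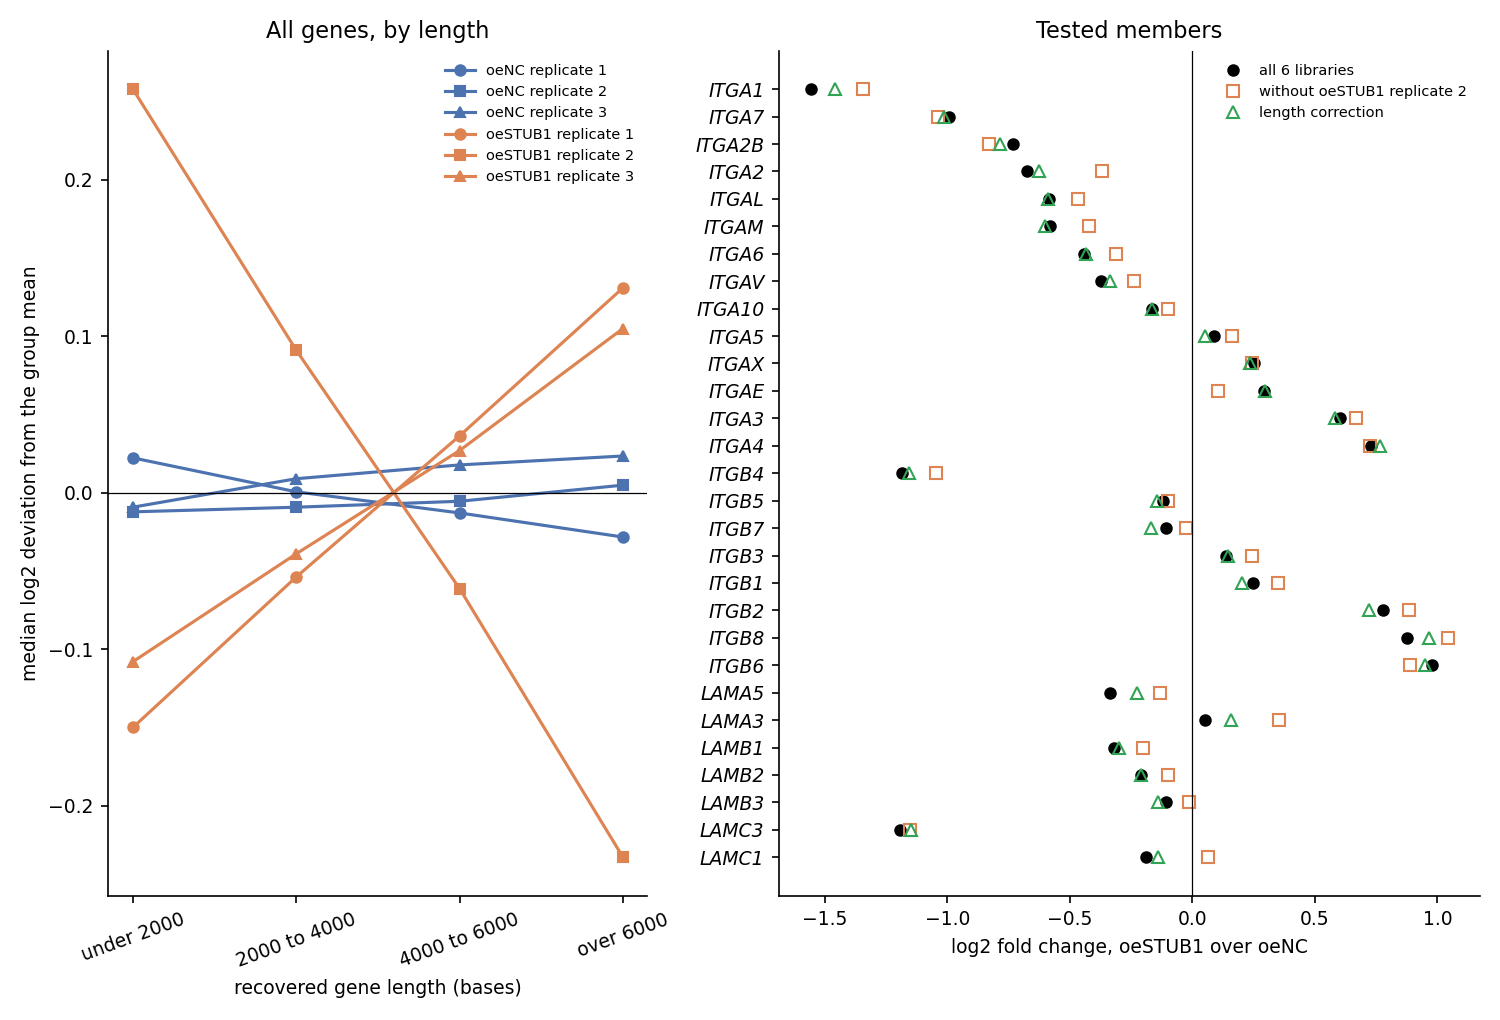
Left, median log2 deviation of each library from its group mean for all genes in 4 classes of recovered length, where oeSTUB1 replicate 2 runs from 0.258 for genes under 2000 bases to -0.233 for genes over 6000 bases. Right, log2 fold changes of the 29 tested members with all 6 libraries, without oeSTUB1 replicate 2 and after a correction of each library for gene length, in which LAMC3, ITGA3 and ITGA7 hardly move, while LAMA3 and ITGA2 move most without that library.

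With each library corrected for gene length, an alternative chosen after the data were seen, 4 members were higher and 10 lower, against 10.1% and 12% of all tested genes. The additions to the 7 called members were ITGA4, ITGB6 and ITGB8 on the higher side and ITGA2, ITGAV, LAMA5 and LAMB1 on the lower side. All 7 kept their sign there, and the log2 fold changes of ITGB4 and ITGA1 were -1.16 and -1.46. Without oeSTUB1 replicate 2 the log2 fold change of ITGAE went from 0.29 to 0.11, that of ITGA5 from 0.09 to 0.16, that of ITGB3 from 0.14 to 0.24 and that of ITGA10 from -0.16 to -0.098. Those of LAMB2 and LAMB3 went from -0.21 to -0.098 and from -0.11 to -0.013, and that of ITGB7 from -0.11 to -0.028. None of these 7 genes was called by limma with all 6 libraries or without that one.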

How the data were processed

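RNA-seq of 6 libraries was analysed, 3 oeNC and 3 oeSTUB1, grouped by their labels, and columns were matched to samples by name. There were 0 value columns without a mapped sample. FPKM values were deposited by gene symbol, with replicates in separate columns. The submitters' processing notes name fastp 0.20.1, HISAT2 2.1.0, HTSeq 0.11.2, R 3.2.0, DESeq2 1.22.2 and the build GRCh38.p13. The annotation and the strand setting are not given in the sources used here. Reads of antisense partners may therefore be counted with a gene.

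Whole fragments were recovered from the FPKM steps for 23569 of 23569 genes (100.0% within 0.02 of a whole number). Recomputing the FPKM values from them left differences of no more than 4.9e-06. A gene's fragments are known up to a common divisor. Library totals were 34705001, 34663445 and 36744521 (oeNC replicates 1 to 3) and 34457814, 33106564 and 34169331 (oeSTUB1). The floor of a group was set at 3 fragments in each of its libraries. No 2 replicates agreed within sampling noise.

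The main test was limma 3.58.1 (R 4.3.3, eBayes with trend, two-sided), applied to log2(FPKM + 0.1) where the mean reached 0.1 FPKM. Chain shares were compared by exact permutation in Python 3.11.15 with scipy 1.17.1. Of 38 genes matched by symbol, 1 is not reported here, nor is 1 gene of a partner list and 1 marker, and counts of members and lists leave them out. Every other member was accounted for. Library values are given for those called or averaging 10 FPKM or more in either group. For ITGA5, ITGA7, ITGB5 and LAMB2 the mean and SD stand in their place. Library values are also given for other members discussed as near the threshold, which were chosen after their values were seen. Of the other gene lists, those called with a log2 fold change over 1 in size are named with their values, and further genes named there were also chosen after their values were seen. The members and lists were chosen with earlier results of these data known, and list membership is from general knowledge. Coordinates are from GENCODE release 29 (GRCh38), and promoter sequences are from RefSeq (GRCh38.p14).

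The settings tried besides were a pseudocount of 0.01 or 1, a filter at 1 FPKM or none, median-ratio scaling, quantile normalization, eBayes without trend, limma-voom on recovered fragments, omission of each library, the replicate number as a block, shares of fragments or of FPKM + 0.1, and a lowess correction of each library by gene length, chosen after seeing the data. The scripts were tested on simulated data. The other assays of the study were not analysed here.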

Additional observations from a re-analysis of the deposited data

How the results depend on the processing

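Against 1 member called higher and 6 lower, the higher count was 2 with a pseudocount of 1, 3 under eBayes without trend, without a filter and under quantile normalization, and 4 under limma-voom and under the length correction. The lower count was 2 with a filter at a mean of 1 FPKM, where only 18 members were tested, and 10 under the length correction. Leaving out 1 library gave 1 to 4 higher and 4 to 9 lower, with the top of both ranges without oeSTUB1 replicate 2, while the share of all tested genes called ranged from 3.11 to 14.8% higher and from 2.97 to 12% lower over the same fits. Among the 74 listed partner genes the counts of 13 higher and 9 lower ranged over the libraries left out from 9 to 20 (20 without oeSTUB1 replicate 2) and from 5 to 13 (5 without oeNC replicate 1 or 2). The log2 fold change of ITGB7 ranged from -0.34 to 0.041 when 1 library was left out, that of LAMA3 from -0.11 to 0.36 and that of LAMC1 from -0.31 to 0.062, so these 3 changed sign, and none of the other tested members did. The share differences kept their sign in every setting tried. With the replicate number as a block, 2 members were called higher and 4 lower, ITGB6 being gained and ITGA2B and ITGA6 lost. No pairing by replicate number was seen, as deviations of same-numbered libraries correlated at -0.05, -0.05 and 0.06. The skew of oeSTUB1 replicate 2 by gene length enters these deviations, so they cannot exclude a pairing. Of the 8 members under the filter, a fit of all genes without it called LAMA4 and none of the other 7, whose adjusted p was at least 0.224.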
